A study of Homo sapiens with 10 samples.

Results

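ERG and EWS were mapped side by side by ChIP-seq in RWPE1 cells that stably expressed wild-type ERG, and the peaks of each factor were set against those of the other. The regions described here are all peaks of 3 lists from these cells, 9557 of the 30301 peaks in the 7 lists of the series. ERG replicate 1 held 1901 peaks, ERG replicate 2 held 1953 and the single EWS list held 5703. RWPE1 is an immortalised line from normal prostate epithelium, grown here in keratinocyte medium with growth supplements and with puromycin and hygromycin for selection. No other treatment is named, and the labels do not say whether the cells came from 1 clone or whether both ERG libraries came from separate cultures. The remaining lists, used for comparison, came from RWPE1 with the point mutant ERG P436A (ERG and EWS) and from the prostate cancer line VCaP (ERG and EWS). ERG was precipitated with the monoclonal antibody clone 9FY and EWS with clone G5.

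ERG is a transcription factor of the ETS family, whose DNA-binding domain recognises sites built around a GGAA core. In many prostate cancers a fusion with the promoter of the androgen-regulated gene TMPRSS2 places ERG in prostate cells, which otherwise have little of it. EWS, the product of EWSR1, is an RNA- and DNA-binding protein of the FET family, named for the Ewing sarcoma fusions that join it to ETS factors. The design text describes EWS as a co-activator of ERG, so the question put to these lists is how many ERG sites also carried EWS in the same cells.

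A minority of wild-type ERG peaks coincided with an EWS peak, and the share differed between the replicates. An overlap of at least 1 bp counted as shared. In replicate 1, 176 of 1901 ERG peaks overlapped an EWS peak (9.26%, exact 95% interval 7.99% to 10.7%). In replicate 2, 63 of 1953 did (3.23%, 2.49% to 4.11%). The intervals did not overlap, and the odds ratio of replicate 1 over replicate 2 was 3.06 (2.26 to 4.18; Fisher's exact test, two-sided, adjusted p = 9.66e-15). This test sets 2 lists of 1 group against each other. Peaks are not replicates, and the intervals cover counting error only. Read depth is unknown. Replicate 1 was higher than replicate 2 under every overlap rule and filter tried, as the plot of shares shows. Odds ratios lay between 2.71 and 3.23 across the overlap rules and the fixed width. With filters included they lay between 2.39 and 8.87. Without megabase bins that held 10 or more peaks of the lists compared, the shares were 4.80% in replicate 1 and 2.06% in replicate 2. In the first listed 50% of each list, with the EWS list cut as well, they were 8.42% and 1.02%.

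**Figure D1:**
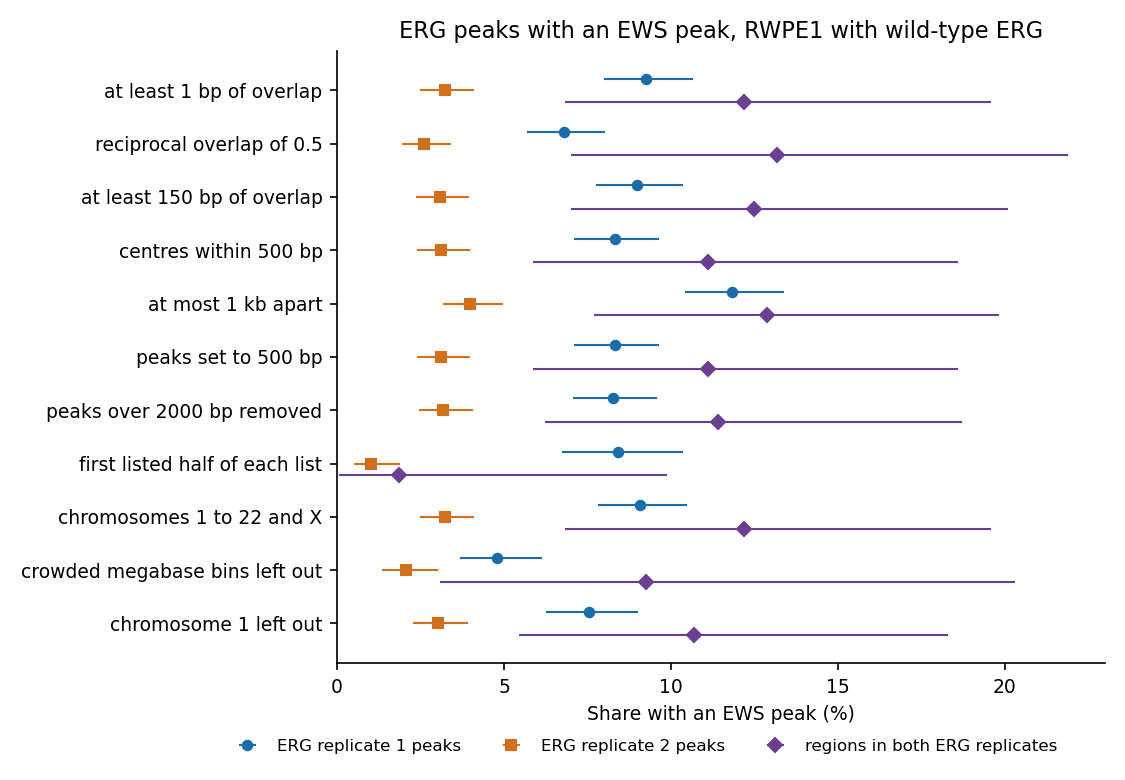
Share of ERG replicate 1 peaks, of ERG replicate 2 peaks and of regions found in both replicates that had an EWS peak (x axis, %), under each rule or filter (y axis). Bars are exact 95% intervals, and replicate 1 lay above replicate 2 in each row, at 9.26% and 3.23% in the top one.

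Regions found in both ERG replicates numbered 115, and 14 of them also had an EWS peak (12.2%, 6.82% to 19.6%). Few ERG peaks overlapped the other replicate, 115 of 1901 (6.05%) in replicate 1 and 116 of 1953 (5.94%) in replicate 2. Over all 3738 merged ERG regions of either replicate the share was 6.02%, with EWS at 225 regions. Regions of replicate 1 alone had EWS at 162 of 1786 (9.07%, 7.78% to 10.5%), and those of replicate 2 alone at 49 of 1837 (2.67%, 1.98% to 3.51%). The odds were 2.24 times higher in regions of both replicates than in regions of 1 (1.16 to 4.02; Fisher's exact test, two-sided, adjusted p = 0.00906). The call was lost against regions of replicate 1 alone, where the odds ratio was 1.39 (0.717 to 2.51; Fisher's exact test, adjusted p = 0.248). It stood against regions of replicate 2 alone, at 5.05 (2.49 to 9.68; Fisher's exact test, adjusted p = 8.93e-06). Each class comes from the same 2 ERG lists, and shared peaks lie in clusters, so these p-values compare lists only. Regions of both replicates are merged peaks, with median widths of 925.5 bp with EWS and 883 bp without. All peaks of replicates 1 and 2 had medians of 608 and 501 bp. With only the stretch common to both replicates counted, 14 of 115 again had EWS and the odds ratio was again 2.24. The EWS share of regions of both replicates was 1.85% in the first listed 50% of each list, where 1 such region had EWS and the odds ratio was 0.371 (Fisher's exact test, adjusted p = 0.515).

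Seen from EWS, 222 of 5703 peaks lay at a wild-type ERG peak of either replicate (3.89%, 3.41% to 4.43%). Replicate 1 accounted for 173 of these EWS peaks (3.03%, 2.60% to 3.51%) and replicate 2 for 63 (1.10%, 0.850% to 1.41%), with 14 at a peak of both (0.245%, 0.134% to 0.412%). The other 5481 EWS peaks had no ERG peak. Outside crowded bins, 1.93% of EWS peaks lay at ERG of either replicate. The overlap was almost one to one, as the 176 replicate 1 peaks formed 177 pairs with EWS and the 63 replicate 2 peaks formed 63.

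The 14 regions with ERG in both replicates and EWS lay on 9 chromosomes and are lettered A to N in genome order in the map of these regions. All positions are 1-based on build hg19. Chromosomes 1 and 9 carried 3 each, chromosome 5 carried 2, and chromosomes 8, 10, 11, 17, 20 and 21 carried 1 each. On chromosome 20, which held the most regions of both replicates, 1 of 24 had EWS. The counts were 3 of 12 on chromosome 1, 3 of 13 on chromosome 9 and 2 of 14 on chromosome 5. The stretch common to all 3 peaks had a median of 486 bp and ranged from 339 to 1021 bp. Regions C, G and J lay in megabase bins, described below, that held 3 or more shared peaks of replicate 1. Whether repeated sequence gives peaks to both antibodies at any of the lettered regions was not tested.

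On chromosome 1, region A spanned 91852643 to 91853286, region B 94158710 to 94159345 and region C 203857812 to 203859163. In region A both ERG peaks started on the same base, and the EWS peak of 939 bp enclosed them. Region A was also the last entry of all 3 lists, at positions 1901, 1953 and 5703. Region B had 3 peaks of like width, 636 bp and 564 bp for ERG and 535 bp for EWS, with centres at most 11.5 bp apart from that of EWS. Region C stood near the head of the lists of replicate 1 and EWS, at positions 22 and 52, but at position 1163 in replicate 2.

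On chromosome 5, region D ran from 90606969 to 90608219 and region E from 142641166 to 142641742. Region D had the shortest common stretch, 339 bp, as the replicate 1 peak was centred 408.5 bp above the EWS peak and the replicate 2 peak 55.5 bp above it. In region E the EWS peak of 473 bp lay inside both ERG peaks. Region F, on chromosome 8 from 128403315 to 128404227, had 555 bp in common, the whole replicate 2 peak.

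Chromosome 9 held region G at 68433726 to 68434262, region H at 79186196 to 79187313 and region I at 91392489 to 91393458. In region G the EWS peak of 990 bp enclosed both ERG peaks of 495 and 506 bp. Region H had a replicate 1 peak and an EWS peak that started on the same base. Region I stood early in both ERG lists, at positions 97 and 105, and at position 2887 in the EWS list.

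Region J lay on chromosome 10 at 127579990 to 127580871 and region K on chromosome 11 at 118792380 to 118793317. Region K was early in all 3 lists, at positions 245, 204 and 267. Region L on chromosome 17, 41399610 to 41401562, had the widest ERG peak of the set, 1953 bp in replicate 2, beside 870 bp in replicate 1 and 1844 bp for EWS. Region M was on chromosome 20 at 62165177 to 62165768, with 3 peaks of 483, 576 and 501 bp. Region N on chromosome 21, 9826686 to 9828169, had the widest EWS peak, 2815 bp, and the longest common stretch, 1021 bp. List order is not documented as a ranking, so these positions describe the lists only.

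**Figure D2:**
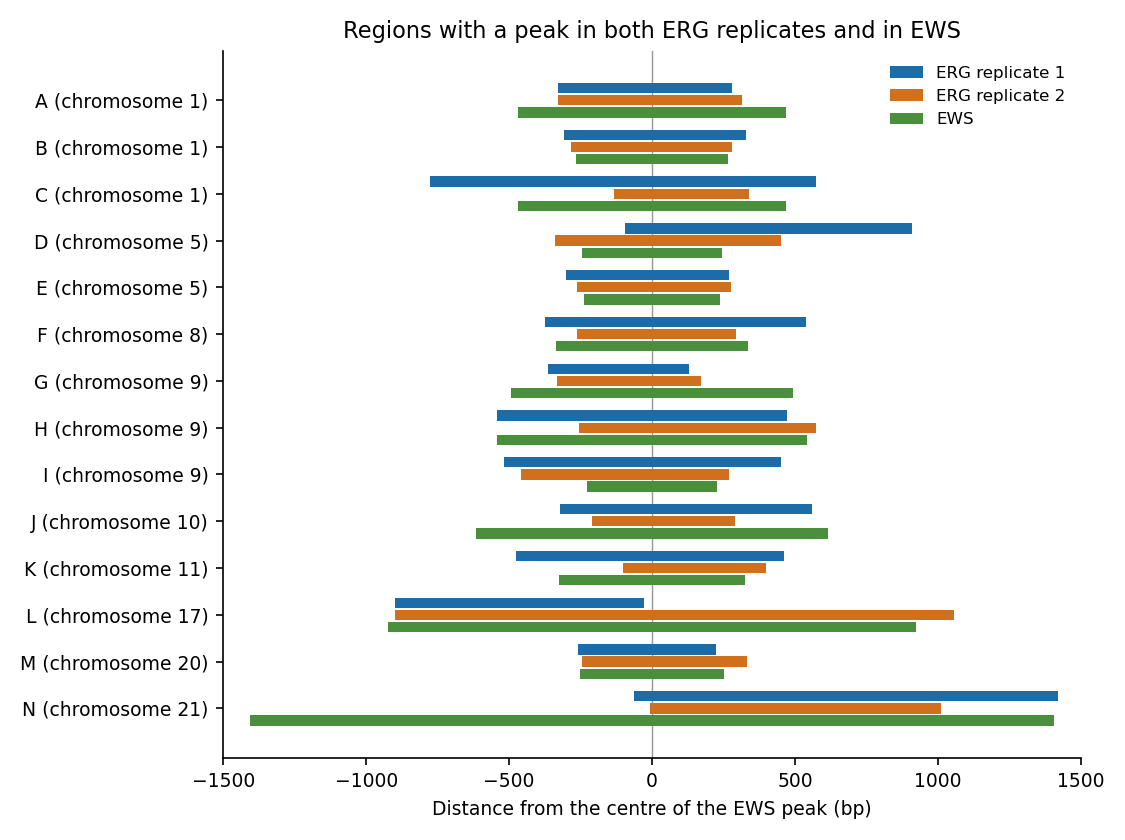
Extent of the ERG replicate 1, ERG replicate 2 and EWS peaks (bars) in the 14 regions where all 3 overlap, as distance in bp from the centre of the EWS peak (x axis), 1 region per row, A to N. In 11 regions the replicate 1 centre, and in 13 the replicate 2 centre, lay within 200 bp of the EWS centre, and region N is the exception for both.

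Overlapping pairs of peaks were described by the length of overlap and the distance between centres. Selecting pairs by overlap limits in itself how far apart their centres can lie, also for pairs of the ERG replicates. The distances therefore describe the pairs only. For replicate 1 the 177 pairs had a median overlap of 501 bp (quartiles 430 and 725, range 10 to 5366) and a median distance between centres of 123 bp (quartiles 38.5 and 302, largest 1942). For replicate 2 the 63 pairs had a median overlap of 479 bp (quartiles 403.5 and 503, range 16 to 1820) and a median distance of 80.0 bp (quartiles 31.5 and 175.5, largest 581). Centres were within 100 bp of each other in 78 pairs of replicate 1 (44.1%) and 37 of replicate 2 (58.7%). Between the ERG replicates themselves, 62 of 116 pairs were that close (53.4%), with a median distance of 86.8 bp. Only 5 and 3 pairs shared less than 150 bp, the length to which the DNA was sheared. The median pair covered 88.4% of the ERG peak and 79.0% of the EWS peak in replicate 1, and 82.0% and 82.2% in replicate 2. Neither factor had the wider peak throughout, since ERG was wider in 85 of 177 pairs and in 36 of 63.

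**Figure D3:**
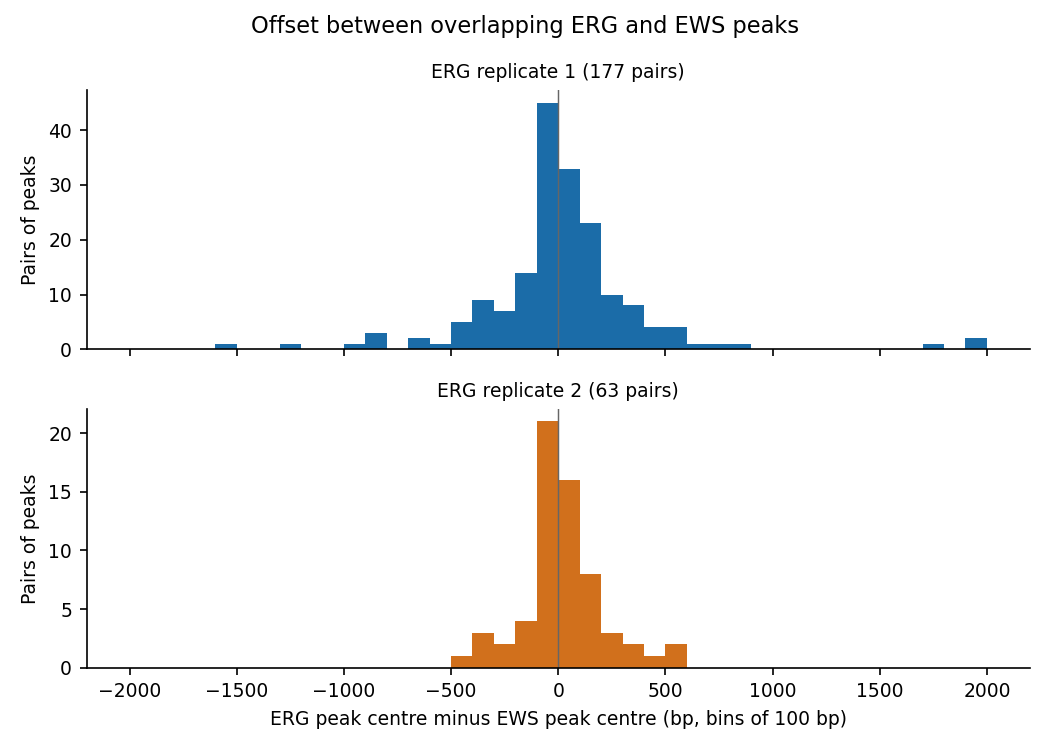
Offset of the ERG peak centre from the EWS peak centre (x axis, bp, bins of 100 bp) for every overlapping pair (y axis, number of pairs), replicate 1 above and replicate 2 below. Both distributions peak at the EWS centre, with medians of the absolute offset of 123 and 80.0 bp, and replicate 1 has the longer tails.

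Some pairs shared a boundary to the base. A start or an end was identical in 23 pairs of replicate 1 with EWS (13.0%), of which 2 were identical at both ends, and in 4 pairs of replicate 2 with EWS (6.35%). Between the ERG replicates this was so in 9 of 116 pairs (7.76%).

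Most ERG peaks had no EWS peak within 10 kb, and few lay just outside one. The gaps to be expected for unrelated lists were not computed. The nearest EWS peak was at a median gap of 67749 bp for replicate 1 and 133144 bp for replicate 2. Widening the rule from overlap to a gap of at most 1 kb added few peaks, giving 225 in replicate 1 (11.8%) and 78 in replicate 2 (3.99%). Within 10 kb there were 461 (24.3%) and 198 (10.1%), and within 100 kb 1074 (56.5%) and 861 (44.1%). The other ERG replicate was within 100 kb of 31.6% of replicate 1 and 32.0% of replicate 2 peaks, though these lists are shorter than that of EWS. Of the 101 regions of both replicates without EWS, 1 had an EWS peak within 1 kb, 15 within 10 kb and 58 within 100 kb.

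**Figure D4:**
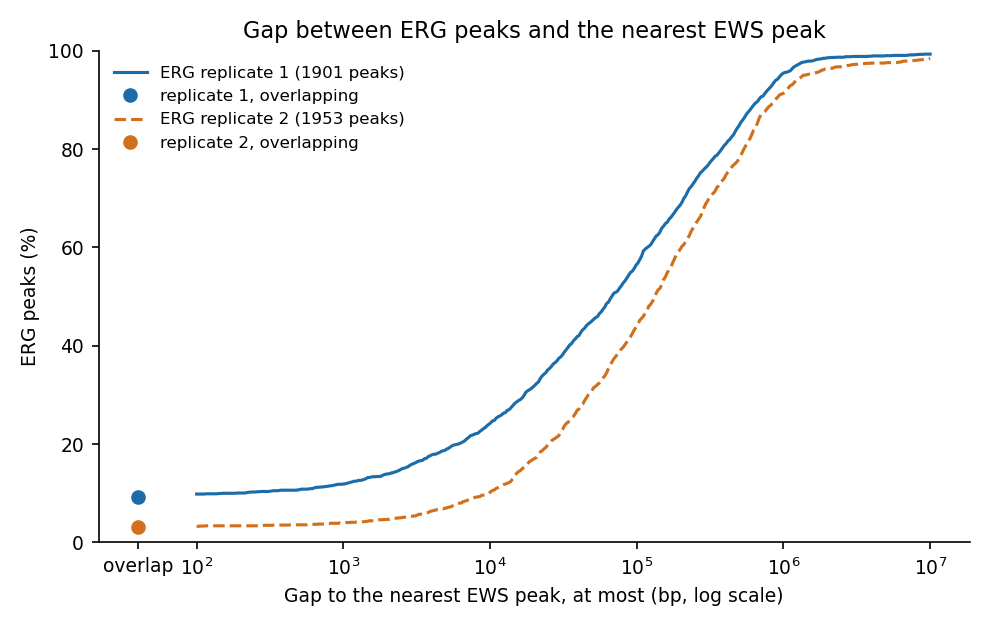
Cumulative share of ERG peaks (y axis, %) whose nearest EWS peak is at most the given gap away (x axis, bp, log scale), for replicate 1 (solid) and replicate 2 (dashed), with overlapping peaks as points at the left. Replicate 1 lies above replicate 2 throughout, at 24.3% against 10.1% within 10 kb.

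The 5 regions of both replicates without EWS that had the longest stretch in common were on chromosome 9 at 132095707 to 132097102, chromosome 5 at 141227873 to 141230181, chromosome 16 at 56640366 to 56641966, chromosome 20 at 49345689 to 49346991 and chromosome 20 at 30300394 to 30301833. Their replicates had 955 to 1169 bp in common, and all 5 also had a peak of ERG P436A. The first and second of them had a VCaP ERG peak as well, and the first also had an EWS peak of P436A cells.

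ERG peaks with EWS had a median width of 652 bp in replicate 1, against 602 bp for those without. In replicate 2 the medians were 555 bp with EWS and 501 bp without. In replicate 1 the share with EWS stood out in the widest class. It was 30.3% above 1000 bp (44 of 145, 23% to 38.5%), 6.27% from 751 to 1000 bp, 8.05% from 501 to 750 bp and 7.66% up to 500 bp. In replicate 2 it was 4.44% above 1000 bp (2 of 45, 0.543% to 15.1%), 5.0% from 751 to 1000 bp, 4.47% from 501 to 750 bp and 1.75% up to 500 bp (16 of 916, 1.00% to 2.82%). A wider peak has more bases that can overlap. With all peaks set to 500 bp, 158 replicate 1 peaks (8.31%) and 61 replicate 2 peaks (3.12%) had EWS. Of the 44 replicate 1 peaks above 1000 bp with EWS, 28 lay in 16 megabase bins described below. Outside those bins, 16 of 107 replicate 1 peaks above 1000 bp had EWS, against 88 of 1679 of all widths.

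EWS peaks at ERG were wide as well when the ERG peak was of replicate 1. Their median was 729 bp at replicate 1, 533 bp at replicate 2 and 499 bp for the 5481 at neither. They also stood at different places in the EWS list. Those at replicate 1 had a median position of 16.0% of the list, those at replicate 2 65.6% and those at neither 50.4%. The first 25% of the EWS list held 97 of the 173 EWS peaks at replicate 1 but 12 of the 63 at replicate 2. In the ERG lists, taken in 4 equal stretches from first to last listed, the share with EWS was 11.8%, 8.0%, 8.84% and 8.40% in replicate 1 and 3.07%, 2.87%, 4.10% and 2.86% in replicate 2. The intervals of these stretches overlapped within each replicate.

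Bins with several shared peaks came mostly from replicate 1, which also had more shared peaks to place. The 176 shared peaks of replicate 1 fell in 96 megabase bins, 16 of which held 3 or more and together 88 peaks. The 63 of replicate 2 fell in 57 bins, and 1 bin held 3. In replicate 1, 72 of the 96 bins held 1 shared peak, as did 52 of the 57 in replicate 2. Of the bins, 19 had shared peaks of both replicates, 19.8% of those of replicate 1 and 33.3% of those of replicate 2. Chromosome 1 held 63 shared peaks of replicate 1 (35.8% of them, against 21.4% of the whole list) and chromosome 20 held 19 of replicate 2 (30.2%, against 15.4% of the list).

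The 16 bins of replicate 1 were of 2 kinds. Since they were selected on their shared peaks, their shares are a description. On chromosome 1, 8 bins between 195 and 205 Mb were rich in EWS peaks (507) and in ERG peaks of replicate 1 (173). Of these replicate 1 peaks, 46 had EWS (26.6%). The other 8 bins, on chromosomes 2, 9, 10, 16, 20, 21 and Y, held 74 EWS and 49 replicate 1 peaks, and 42 of these 49 had EWS (85.7%). By peaks of both lists they held 8 to 24 each, against 28 to 130 in the bins of chromosome 1. At 10 or more peaks, 6 of these 8 bins counted as crowded, with 36 of their 42 shared peaks. In the bin of chromosome 16 from 33 to 34 Mb, 8 of 9 replicate 1 peaks had EWS. From 68 to 69 Mb on chromosome 9 this was so for 6 of 6, from 133 to 134 Mb on chromosome 2 for 6 of 7, from 89 to 90 Mb on chromosome 2 for 5 of 6 and from 29 to 30 Mb on chromosome 20 for 8 of 10. Replicate 2 had 5 peaks in all in the second kind of bin and 26 in the first. In the bins from 195 to 200 Mb on chromosome 1, replicate 1 had 22 to 33 peaks each and replicate 2 had 0 to 2. In the bins starting at 201, 203 and 204 Mb, replicate 1 had 8, 12 and 9 and replicate 2 had 11, 6 and 4. Shared replicate 1 peaks had a median width of 1173 bp in the 8 bins of other chromosomes and 539 bp in those of chromosome 1, and the bins of other chromosomes held 23 of the 44 shared peaks over 1000 bp. Outside all 16 bins, 88 of 1679 replicate 1 peaks had EWS (5.24%, 4.22% to 6.42%), against 58 of 1922 replicate 2 peaks (3.02%, 2.30% to 3.88%). Of the lettered regions, C, G and J lay in these bins. Whether repeated sequence in these bins gives peaks to both antibodies was not tested.

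The longest overlaps among peaks of replicate 1 alone came from these bins of other chromosomes. On chromosome 2 an ERG peak at 133026005 to 133031578 and an EWS peak at 133025810 to 133031370 had 5366 bp in common, at positions 4 and 3 of their lists. On chromosome 9 an ERG peak at 68417261 to 68420114 lay whole, with 2854 bp, inside an EWS peak of 7061 bp. The next were on chromosome 16 at 33957367 to 33959808, with 2437 bp in common, and on chromosome 2 at 89869308 to 89871575 and at 89866676 to 89868678, with 2268 and 2003 bp. None of these 5 had a peak in the ERG P436A, EWS P436A or VCaP lists.

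Among peaks of replicate 2 alone the longest overlaps were shorter, 587 to 715 bp. They lay on chromosome 1 at 197669749 to 197670463, chromosome 20 at 42478343 to 42479114, chromosome 9 at 99120690 to 99121296, chromosome 20 at 36759264 to 36759932 and chromosome 17 at 38644363 to 38644949. The ERG peak at chromosome 20, 42478343, and that at chromosome 9, 99120690, started on the same base as the EWS peak there. One of the 5, that at chromosome 20, 42478343, had a peak in another list, VCaP ERG.

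Whether ERG peaks with EWS also had a peak in other cells was asked of the 4 other lists, each taken alone. These shares do not count sites with both factors in the same other cells. EWS of P436A cells was found at 12 of 176 replicate 1 peaks with EWS (6.82%, 3.57% to 11.6%) and 15 of 1725 without (0.870%, 0.487% to 1.43%). In replicate 2 it was found at 6 of 63 with EWS (9.52%, 3.58% to 19.6%) and 36 of 1890 without (1.90%, 1.34% to 2.63%). In both replicates these intervals did not overlap. VCaP EWS gave 8 of 176 (4.55%, 1.98% to 8.76%) and 17 of 1725 (0.986%, 0.575% to 1.57%) in replicate 1. In replicate 2 it gave 3 of 63 (4.76%, 0.993% to 13.3%) and 69 of 1890 (3.65%, 2.85% to 4.60%), with intervals that overlapped.

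The ERG lists gave another picture. A VCaP ERG peak lay at 5 of 176 replicate 1 peaks with EWS (2.84%, 0.929% to 6.5%), against 158 of 1725 without (9.16%, 7.84% to 10.6%). In replicate 2 this was 2 of 63 (3.17%, 0.387% to 11%), against 87 of 1890 (4.60%, 3.70% to 5.65%), and the intervals overlapped. ERG P436A lay at 20 of 176 replicate 1 peaks with EWS (11.4%, 7.08% to 17.0%) and 201 of 1725 without (11.7%, 10.2% to 13.3%). In replicate 2 it lay at 13 of 63 with EWS (20.6%, 11.5% to 32.7%) and 120 of 1890 without (6.35%, 5.29% to 7.54%). The replicates thus differed in whether peaks with EWS were shared more with the mutant. No test was run on these shares, and each of the other groups had 1 list.

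**Figure D5:**
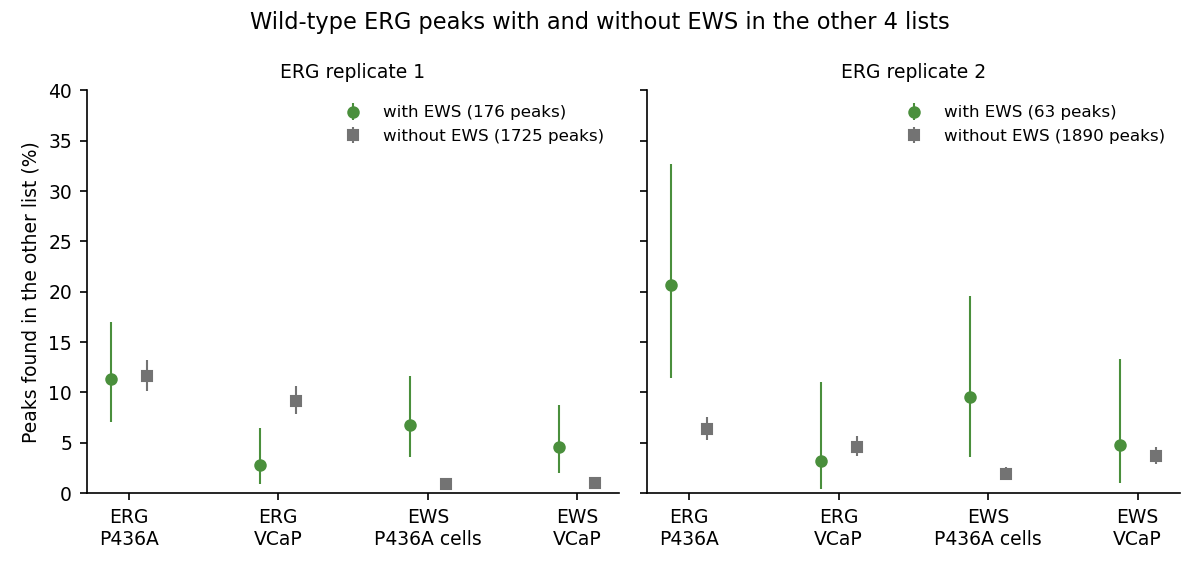
Share of wild-type ERG peaks found in each of the 4 other lists (y axis, %), for peaks with EWS (circles) and without EWS (squares), replicate 1 at left and replicate 2 at right, with exact 95% intervals. EWS of P436A cells lay at 6.82% and 9.52% of peaks with EWS, against 0.870% and 1.90% of those without.

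Of the 14 regions with all 3 peaks, 6 also had ERG P436A (42.9%, 17.7% to 71.1%), against 49 of the 101 without EWS (48.5%, 38.4% to 58.7%). These 6 were regions A, C, F, I, L and M. EWS of P436A cells was found at 2 of the 14, H and L (14.3%, 1.78% to 42.8%), against 4 of the 101 regions without EWS (3.96%, 1.09% to 9.83%). VCaP EWS was found at 2, J and N (14.3%, 1.78% to 42.8%), against 6 of the 101 (5.94%, 2.21% to 12.5%). VCaP ERG was found at 1, L (7.14%, 0.181% to 33.9%), against 20 of the 101 (19.8%, 12.5% to 28.9%). These intervals overlapped for each list. Region L was thus in every list but VCaP EWS. Regions B, D, E, G and K were in none of the 4 other lists (35.7%, 12.8% to 64.9%), as were 39 of the 101 without EWS (38.6%, 29.1% to 48.8%).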

How the data were processed

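ChIP-seq peak lists of 7 of the 10 samples were used, and the 3 input samples were not used here. The values in the deposited lists are positions in bp, in 3 columns without a header, with no score, height or p-value. Per the submitters' processing notes, the aligner was Bowtie2 with a stated version of 0.12.8 and the build hg19. How peaks were called, and against which control, is not given in the sources used here. Every list is filed under a single sample. Depth is unknown, so list lengths and shares can move with it. DNA was sheared to about 150 nt, per the labels' protocols.

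Starts were read as 0-based. Peaks were shared at 1 bp of overlap, and replicate peaks that overlapped were merged into regions. Shares carry exact Clopper-Pearson 95% intervals, which cover counting error only. The 2 planned Fisher's exact tests (two-sided) were adjusted together by Benjamini-Hochberg. Bins were fixed megabases. Overlap code was tested on simulated data. Tools were Python 3.11.15, NumPy 2.4.6 and SciPy 1.17.1.

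The peaks, tests and lists were chosen with earlier results of these data known. Named were all regions of both replicates with EWS, and by longest overlap 5 each of replicate 1 alone, replicate 2 alone and both without EWS. The gene table at hand is of another build than the lists, so the planned gene, motif and sequence annotation was left out. The alternatives tried were other overlap rules, widths, filters and the lists without chromosome 1 or a replicate.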

Additional observations from a re-analysis of the deposited data

How the results depend on the processing

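The odds ratio of replicate 1 over replicate 2 stayed above 1 and past the threshold under all 10 alternatives. That of regions of both replicates over regions of 1 did so except in the first listed 50% of each list, where it was 0.371, and against replicate 1 alone, where it was 1.39. Among the alternatives, centres within 500 bp and peaks set to 500 bp gave identical counts, so they amount to 1 rule. In the first listed 50% the shares were 1.02% of replicate 2, 1.85% of regions of both and 3.16% of EWS peaks. With a reciprocal overlap of 0.5 they were 6.79% of replicate 1 and 3.0% of EWS peaks, and with gaps of up to 1 kb 11.8% and 5.05%. Without bins of at least 10 peaks they were 4.80% of replicate 1, 2.06% of replicate 2 and 1.93% of EWS peaks. Without chromosome 1, replicate 1 had 7.56%. Leaving out a replicate, the EWS share was 1.10% to 3.03%. By construction, a reciprocal overlap could only lower the shares of replicate 1 and of EWS peaks, and allowed gaps could only raise them. Leaving out a replicate could only lower the EWS share. In the first listed 50% the EWS list was cut as well. Against the whole EWS list, the first and second stretches of replicate 2 had 3.07% and 2.87%. The cause of the other shifts was not tested. Leaving out chromosome 1, and setting regions of both replicates against those of 1 named replicate, were chosen after seeing the data. No paired analysis was possible because the EWS list has no replicate.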
